A study of Homo sapiens with 2 samples.

Results

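The genes described here encode the enzymes that place acetyl and methyl groups on histones or take them off again, together with EED and SUZ12, the non-catalytic core subunits of one of these enzymes. Members were taken by gene name from the deposited table (the KDM, KMT, KAT, HDAC and SIRT families, with KDM3A left out, and a list of further methyltransferases and acetyltransferases), without regard to their values, and 71 of the table's 36814 gene starts met this rule. Nascent RNA was measured by PRO-seq, in which engaged polymerases extend their transcripts with biotinylated nucleotides during a run-on of 5 min at 30 °C in permeabilised cells. The cells were K562, an established line of chronic myelogenous leukaemia. The study had 2 libraries without replicates: 1 from cells with the treatment label Untreated and 1 from cells given 0.1% DMSO, a drug solvent, for 1 h. The labels give no genetic change for either, and both were grown in RPMI medium with serum. No difference between the libraries has a replicate check, and no p-value is given.

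Histone tails carry marks that are written, erased and read. Acetyltransferases such as EP300 neutralise lysines and accompany open chromatin, and the HDAC and SIRT deacetylases reverse this, the former with a zinc ion and the latter with NAD. Methylation acts by position: at H3K4 it marks active promoters and enhancers, at H3K36 and H3K79 transcribed gene bodies, and at H3K9, H3K27 and H4K20 mostly silent or compacted chromatin. Many of these enzymes exist as paralogs that can sit in the same complex, so the members are described by mark, with related genes side by side.

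The unit of measurement was the read count in a window of 6000 bases, reaching 3000 bases to either side of an annotated gene start on hg38. The 1154 windows without a base of their own all held 0 reads, so bases covered by neighbouring windows as well contributed to neither gene. The counts therefore come from the bases that belong to 1 window alone (unshared bases), and a gene cannot be told from an antisense partner. Levels are given as CPM, read counts scaled to the library total, per kb of unshared bases. These totals were 2136291 reads untreated and 4154920 with DMSO. Ribosomal RNA repeats took 71.5% of the former and 42.2% of the latter, so CPM compare genes within a library and not the 2 libraries.

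Of 12 erythroid marker genes chosen to check the cell line, 10 reached 1 CPM in both libraries (summed level 555 CPM untreated and 823 CPM with DMSO). HBE1, an embryonic globin gene, was at 0 in a window without unshared bases. Of 10 lymphoid and myeloid markers 3 reached 1 CPM, and of 8 epithelial, fibroblast and liver markers 1. A list of 20 neural markers held 11 reads (5.15 CPM) in the untreated and 4198 reads (1010 CPM) in the DMSO library. In the untreated library 17 of them were at 0, and in the DMSO library 2 were, TUBB3 and GRIA2. The part of this neural signal in the values below was not tested.

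Many of the enzymes share their start region with a divergent neighbour, and this decided which of them could be measured. Of the 71 windows, 36 were free of overlap and 26 (36.6%) kept less than 1 kb of unshared bases, against 23.7% of all windows. Of these 26, 25 windows held a RefSeq start of the gene (GRCh38.p14), but only in shared bases. Their counts reached at most 12 untreated and 22 DMSO reads, both at KMT5C, an H4K20 methyltransferase gene, and 12 of the 26 held no read in either library. KDM4A and KMT2E had no unshared base at all, and EHMT1, EHMT2, HDAC3, HDAC4, KDM2B, KDM4D, KDM7A, NSD3 and SIRT3 had 34 to 232 unshared bases and 0 reads. The neighbours included other protein-coding genes (TPMT at KDM1B, PSMD13 at SIRT3, RELL2 at HDAC3) and divergent or antisense transcripts named after the gene itself (KDM2B-DT, KDM7A-DT, KMT2E-AS1, HDAC4-AS1). A count of 0 at these genes says nothing about their transcription. Together with KDM4F, which had a full window, 13 members (18.3%) held no read in either library, against 20.5% of all windows. KDM5D, on the Y chromosome, is counted in these totals and given no value.

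**Figure D1:**
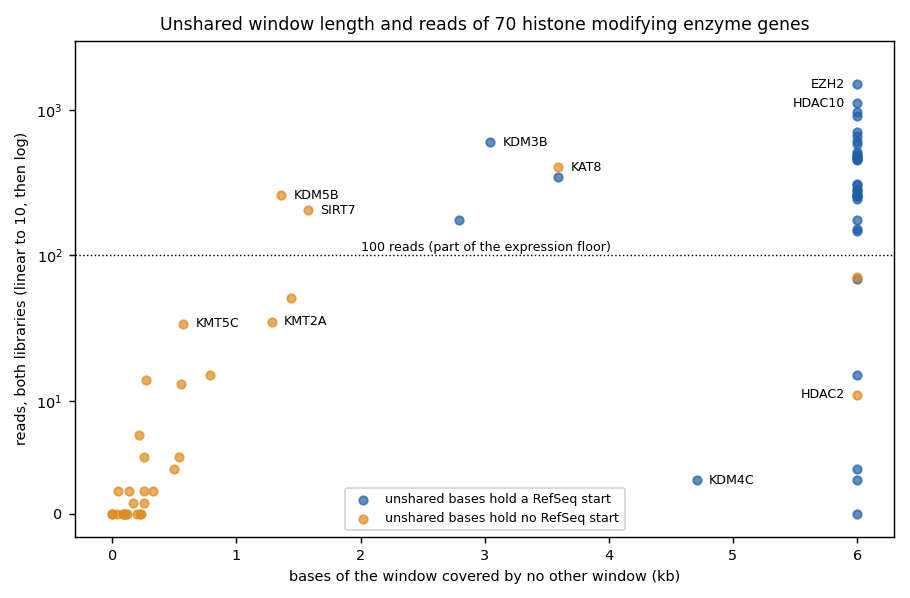
Reads of both libraries together (y axis, linear to 10 reads and log above) against the unshared length of the window in kb (x axis) for 70 members, blue where the unshared bases hold a RefSeq start of the gene and orange where they do not. All points under 1 kb lie below 100 reads, while the points at 6 kb run from 0 reads to those of EZH2.

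The other 45 windows had 1 kb or more of their own. In 38 of these the unshared bases held a RefSeq start, with a median of 51 untreated and 259 DMSO reads. In the other 7 they did not. KMT2A, KAT2A and KDM5B kept only bases downstream of the start, from 1717, 1565 and 1642 bases past the window centre; the RefSeq start of KDM5B lies 1050 bases past that centre. The windows of HDAC2 and HDAC7 lay at annotated starts from which the nearest RefSeq start is 40161 and 11789 bases away. Those of KAT8 and SIRT7 missed theirs by a short distance (3175 and 3148 bases from the window centre), and their unshared bases lie wholly upstream of it and overlap the neighbouring genes BCKDK and MAFG. HDAC2, a ubiquitous class I deacetylase, had 2 untreated and 9 DMSO reads in such a window, which is not a measurement of its promoter. Unshared bases of further members also overlap other RefSeq genes, among them IQSEC2 at KDM5C, ZBTB32 at KMT2B and FABP5P3 at KMT2C. The same holds for RN7SL671P at NSD2, KAT6A-AS1 at KAT6A and LOC124901767 at EZH2. Reads in such overlaps cannot be assigned to a single gene.

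To be compared between libraries, a window had to average at least 5 CPM and to hold at least 100 reads in all (the floor), and 35 members (49.3%) did, against 17.9% of all windows. At 1 CPM in both libraries stood 42 members (59.2%), against 34.7% of all windows. The lowest members inside the floor were KDM2A with 18 untreated and 129 DMSO reads and HDAC5 with 26 and 125 reads. Just outside lay HDAC7 with 23 and 48 reads, SETDB1 with 13 and 56, and KAT2A with 1 and 50. No window with under 1 kb of its own passed.

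Among the 45 windows with 1 kb or more of unshared bases the median level was 4.19 CPM per kb untreated and 10.6 CPM per kb with DMSO. Over the 28070 windows of that length outside ribosomal and mitochondrial sequence the medians were 0.0780 and 0.361 CPM per kb. In the untreated library SIRT7 (14.9 CPM per kb), HDAC10 (14.2), KAT8 (13.6), EZH2 (11.7), KMT5A (11.5) and NSD2 (11.1) stood highest. In the DMSO library the order was EZH2 (54.2 CPM per kb), KDM3B (43.2), KDM5B (40.2), HDAC10 (37.3), NSD2 (33.2) and KMT2C (32.4). The 10 highest of each library had 7 members in common. Neighbours in the order were mostly not separated: of 44 neighbouring pairs, 0 untreated and 5 DMSO pairs differed by more than the exact 95% interval of their ratio. In the DMSO library EZH2 stood above KDM3B by that measure. Such intervals are Clopper-Pearson intervals for ratios and Poisson intervals for counts, and they cover counting error only. The levels of SIRT7 and KAT8 come from bases upstream of their RefSeq starts that overlap MAFG and BCKDK. These levels cannot be assigned to SIRT7 and KAT8. Where neighbours cut a window, as at KDM5B, the level refers to another part of the gene than in an uncut window.

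**Figure D2:**
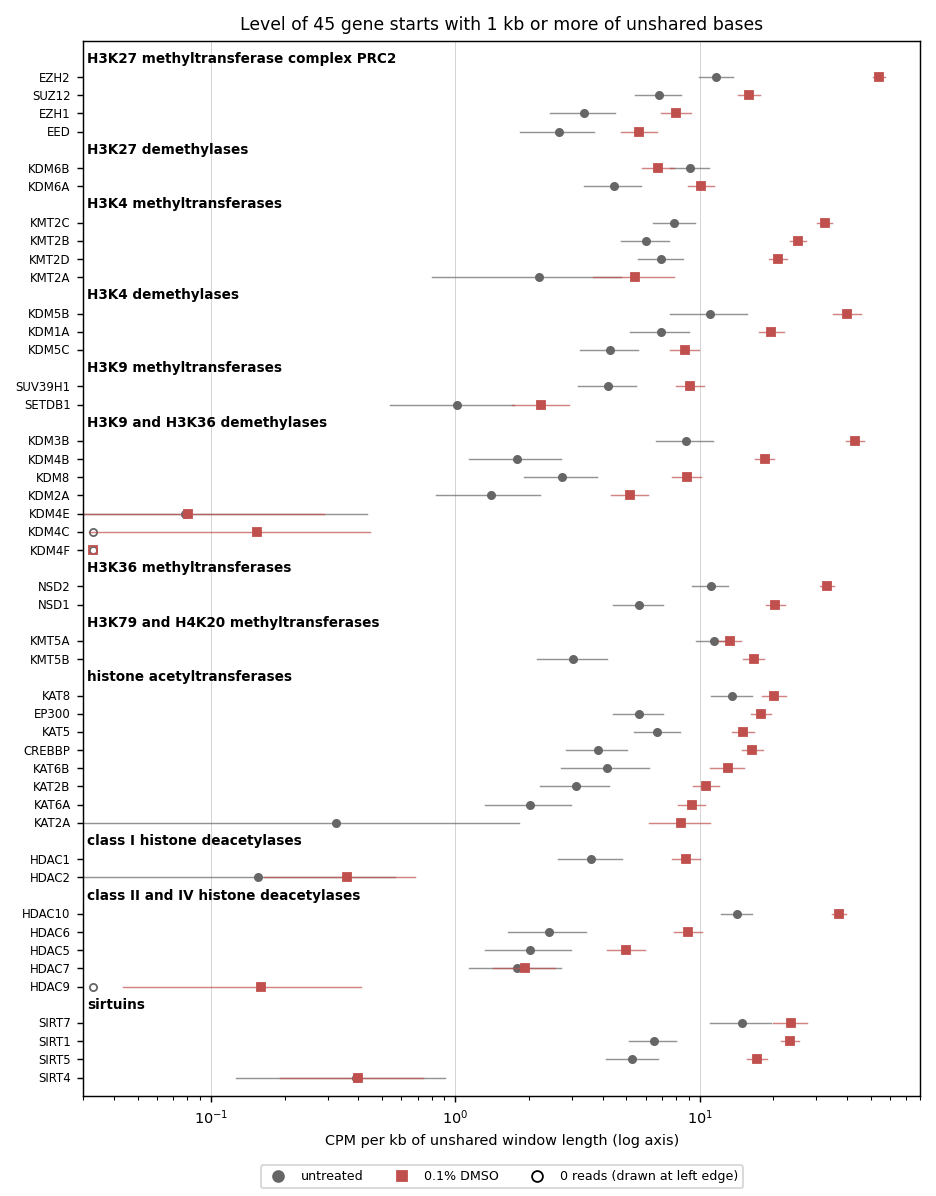
Level of the 45 members with 1 kb or more of unshared bases, in CPM per kb (log axis), grouped by enzyme role; grey circles are the untreated and red squares the DMSO library, lines are exact 95% Poisson intervals, and open symbols at the left edge are counts of 0. EZH2 is the highest point with DMSO at 54.2 CPM per kb, and the KDM4C, KDM4E, KDM4F and HDAC9 windows lie lowest, at 0 or near it. The KDM4C window does not reach the start that the promoter table gives for this gene.

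The Polycomb repressive complex PRC2, which methylates H3K27, was fully measurable, since none of its 4 core windows shared a base with another. EZH2, the main catalytic subunit (window at chromosome 7, 148881322 to 148887321), had 150 untreated and 1351 DMSO reads. EZH1, its paralog that prevails in non-dividing cells, had 43 and 200 reads. SUZ12, the scaffold, had 87 and 397 reads, and EED, which binds the methylated tail, 34 and 141. The order of the counts, EZH2 over SUZ12 over EZH1 over EED, was the same in both libraries. EZH2 exceeded EZH1 by 3.49 times in the untreated library (interval 2.47 to 5.02) and 6.76 times with DMSO (5.82 to 7.88), and SUZ12 by 1.72 times (1.32 to 2.27) and 3.40 times (3.04 to 3.82). SUZ12 over EED was 2.56 times (1.70 to 3.92) and 2.82 times (2.32 to 3.44). EZH2 thus stood further above its partners in the DMSO library, while the step from SUZ12 to EED lay within overlapping intervals in the 2 libraries.

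The promoters of the 2 catalytic paralogs are shown because their levels differ in both libraries. Sequences are from RefSeq (GRCh38.p14), 250 bases before to 50 after a gene start, on the gene's strand. Capitals mark matches, on either strand, to any of 10 motifs: GGGCGG, the box of SP and KLF factors; CCAAT, bound by NF-Y; TTTGGCGC and TTTCCCGC, E2F sites; the palindromic NRF1 site; CCGGAAGT, an ETS site; TATAAA, the box of the TATA-binding protein; ACGTG, the core of hypoxia elements and of many E-boxes; TTGCATCA, a site type of ATF4; and the extended YY1 site. Matches may overlap and a match is only a description of these letters.
EZH2 (chr7:148884242-148884541, minus strand): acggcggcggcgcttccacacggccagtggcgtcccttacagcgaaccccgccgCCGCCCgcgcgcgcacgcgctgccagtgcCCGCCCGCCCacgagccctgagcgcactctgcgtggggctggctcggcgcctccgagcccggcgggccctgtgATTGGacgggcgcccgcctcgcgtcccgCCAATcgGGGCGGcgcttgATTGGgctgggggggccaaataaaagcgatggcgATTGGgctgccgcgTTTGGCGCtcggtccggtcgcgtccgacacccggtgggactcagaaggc
EZH1 (chr17:42744991-42745290, minus strand): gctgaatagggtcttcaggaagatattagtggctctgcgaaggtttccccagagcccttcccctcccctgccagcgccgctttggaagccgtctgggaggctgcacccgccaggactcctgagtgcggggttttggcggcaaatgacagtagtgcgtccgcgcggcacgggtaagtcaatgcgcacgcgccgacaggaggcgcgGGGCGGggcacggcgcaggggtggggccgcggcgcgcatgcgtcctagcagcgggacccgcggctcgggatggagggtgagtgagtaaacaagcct
The EZH2 promoter held 4 CCAAT boxes, 4 GGGCGG boxes, which overlap in part, and the TTTGGCGC motif. That E2F motif occurred in 1 of 62 member promoters and in 0.652% of the 35116 promoters in the table. At least 4 CCAAT boxes occurred in 0.991% of all promoters and, among the members, in EZH2 and KDM4B. EZH1 held a single GGGCGG box and no CCAAT, with 30 CG dinucleotides against 46 in EZH2. GGGCGG was the commonest motif among members, in 43 of 62 promoters (69.4%) against 45.0% of all, and TATAAA was found in the promoter of SIRT4 alone (11.5% of all). TTGCATCA occurred in none of the 62 (0.866% of all). The median member promoter held 30 CG dinucleotides, against 14 over all promoters.

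For the comparison of DMSO with untreated cells, edgeR's TMM scaling set 3.81 DMSO reads equal to 1 untreated read. Each log2 ratio of DMSO to untreated is given relative to the median of the 6591 windows past the floor, which itself stood at 0.31 on the TMM scale. In cells measured in bulk, fewer cells of a type and less RNA per cell cannot be told apart. Of the 35 members past the floor, 3 (8.57%) stood 2-fold or more above the median window, against 7.04% of all windows past the floor, and 2 (5.71%) as far below it, against 7.97%. These shares are near the background. The median member stood at 0.35 relative to the median window, with quartiles of -0.07 and 0.60, against -0.44 and 0.44 for all windows. Above the median window were 24 of the 35 members, where the share over all windows is 50% by construction. The 95% interval lay wholly above the median window for 16 members (45.7%, against 22.5% of all windows) and wholly below it for 4 (11.4%, against 24.5%). Those 4 were KDM6B, KMT5A, KAT8 and SIRT7. The KAT8 and SIRT7 counts come from bases that overlap BCKDK and MAFG and cannot be assigned to the enzyme genes. Most reads counted toward the floor are DMSO reads, so it admits windows that are high with DMSO more easily, and these counts support nothing by themselves. The erythroid markers stood on the other side: all 6 of them past the floor lay below the median window, with a median of -0.49, and their part in the members' values was not tested.

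Across the table, ratios varied with the read count. The median was -0.32 in the 5% of windows with fewest reads past the floor and 0.06 in the 5% with most. Between these ends the medians did not rise steadily, and some were above that of the deepest windows. Members held a median of 404 reads and all windows 250. With this trend subtracted the members' median was 0.31. Members of longer genes stood higher: the 18 longer genes had a median ratio of 0.58 and the 17 shorter ones 0.02. Spearman's rho between gene length and ratio was 0.511 over the 35 members and 0.195 over the 5000 windows past the floor with a known length, as a description of genes that share the same 2 libraries.

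**Figure D3:**
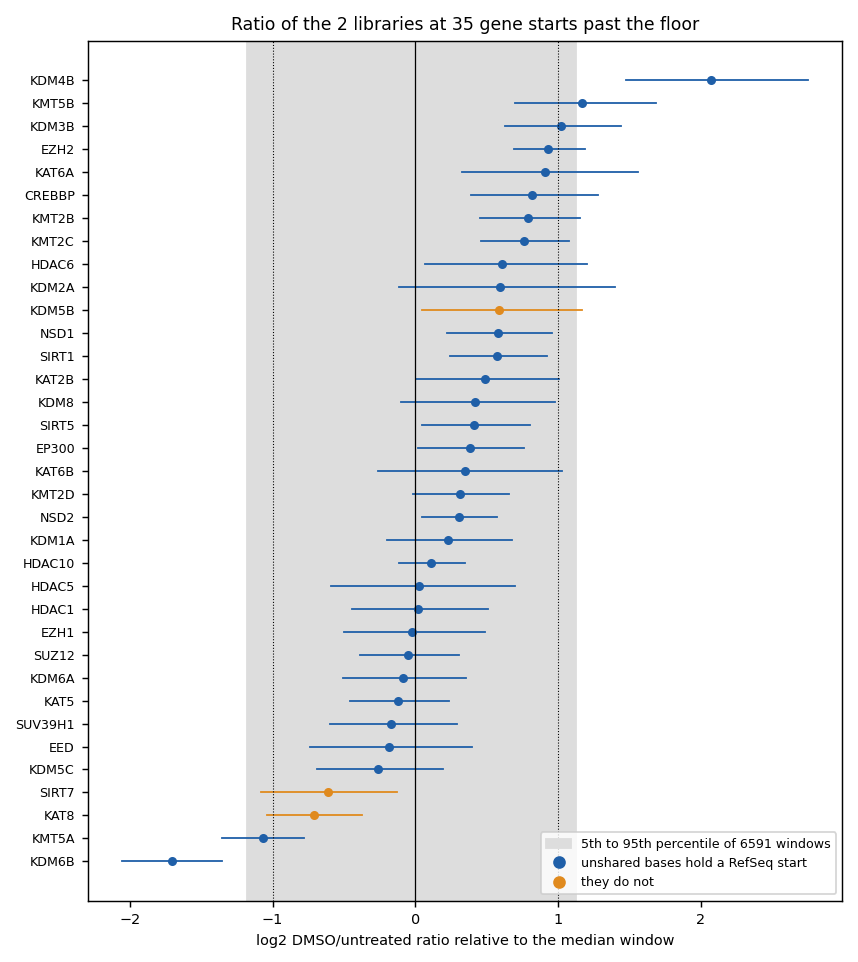
Log2 DMSO/untreated ratio relative to the median window (x axis) for the 35 members past the floor, with exact 95% intervals for counting error; blue members have a RefSeq start in their unshared bases and orange ones do not, dotted lines mark 2-fold, and the grey band runs from the 5th to the 95th percentile of 6591 windows. KDM4B at 2.07 and KDM6B at -1.70 lie outside the band, and KMT5B at 1.17 just past its upper edge.

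The widest differences between the libraries lay at demethylase and H4K20 methyltransferase genes. KDM4B, which removes methyl groups from H3K9 and is a known hypoxia-inducible gene (chromosome 19, 4966113 to 4972112), had 23 untreated and 459 DMSO reads. Its log2 ratio was 2.07 (interval 1.48 to 2.75), or 4.20-fold relative to the median window, and higher than at 99.2% of windows past the floor. At the opposite end stood KDM6B, which removes H3K27 methylation and is known as a stress and inflammation responsive gene (chromosome 17, 7836904 to 7842903). It had 117 untreated and 169 DMSO reads, and its log2 ratio was -1.70 (-2.06 to -1.35), 3.26-fold lower relative to the median window. With the DMSO library thinned to equal depth outside ribosomal and mitochondrial windows, KDM6B stood at -1.28 and KDM4B at 2.19.

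The starts inside the windows of KDM4B and KDM6B differ in sequence, as the promoters show. KDM6B has 2 starts in the RefSeq table. The deposited window holds the downstream one and does not reach the other, at -5687 bases from the window centre (negative is upstream).
KDM4B (chr19:4968863-4969162, plus strand): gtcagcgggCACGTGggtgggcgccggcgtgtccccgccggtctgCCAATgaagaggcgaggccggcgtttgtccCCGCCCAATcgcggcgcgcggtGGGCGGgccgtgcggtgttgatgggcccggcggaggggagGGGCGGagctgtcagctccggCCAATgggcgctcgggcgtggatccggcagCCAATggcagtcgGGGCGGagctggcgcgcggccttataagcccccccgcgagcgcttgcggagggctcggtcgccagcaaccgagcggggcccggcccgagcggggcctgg
KDM6B, start in the window (chr17:7839667-7839966, plus strand): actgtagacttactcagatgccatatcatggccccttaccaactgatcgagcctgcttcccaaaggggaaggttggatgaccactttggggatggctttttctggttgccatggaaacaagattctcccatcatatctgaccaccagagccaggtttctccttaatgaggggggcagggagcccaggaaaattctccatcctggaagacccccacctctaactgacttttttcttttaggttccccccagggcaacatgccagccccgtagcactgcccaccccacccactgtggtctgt
KDM6B, upstream start (chr17:7833967-7834266, plus strand): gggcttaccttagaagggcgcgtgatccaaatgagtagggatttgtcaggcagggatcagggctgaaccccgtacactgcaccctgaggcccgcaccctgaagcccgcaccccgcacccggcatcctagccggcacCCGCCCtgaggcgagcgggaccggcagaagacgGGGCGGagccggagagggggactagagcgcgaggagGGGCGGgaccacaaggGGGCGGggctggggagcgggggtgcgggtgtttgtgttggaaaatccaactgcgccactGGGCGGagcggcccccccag
The KDM4B promoter held 43 CG dinucleotides, 4 CCAAT boxes, 4 GGGCGG boxes and ACGTG on either strand of a single E-box. At 1 position a CCAAT box shares bases with a GGGCGG on the opposite strand. The KDM6B start inside the window held 2 CG dinucleotides and none of the 10 motifs, and 18.2% of all promoters have no more CG than that. Its upstream start held 24 CG dinucleotides and 5 GGGCGG boxes. The KDM6B count is thus from bases around the downstream start alone. Polymerases that began at the upstream start and ran into the window cannot be told from those that began at the downstream one.

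KMT5B and KMT5A, which place successive methyl groups on H4K20, stood on opposite sides of the median window. KMT5A, the monomethyltransferase (chromosome 12, 123380773 to 123386772), had 147 untreated and 331 DMSO reads, and its log2 ratio was -1.07 (-1.35 to -0.78); after thinning it was -0.95, short of 2-fold. KMT5B, which adds further methyl groups (chromosome 11, 68210829 to 68216828), had 39 and 415 reads, and a ratio of 1.17 (0.70 to 1.69). Within the untreated library KMT5A exceeded KMT5B by 3.77 times (2.63 to 5.51), and within the DMSO library it stood at 0.798 of KMT5B (0.688 to 0.924). The order of the pair was therefore turned between the libraries, and both intervals exclude equality. KMT5C and DOT1L, the H3K79 methyltransferase, had 569 and 536 unshared bases and 12 and 1 untreated reads, so neither could be placed.

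The H3K27 demethylases showed a similar turn. KDM6A had 57 untreated and 253 DMSO reads, and its log2 ratio was -0.09 (-0.51 to 0.35). It stood at 0.487 of KDM6B in the untreated library (0.349 to 0.674) and above KDM6B with DMSO (interval of the ratio 1.23 to 1.83). EZH2, the opposing writer, exceeded KDM6A by 2.63 times (1.93 to 3.64) untreated and 5.34 times (4.67 to 6.13) with DMSO.

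**Figure D4:**
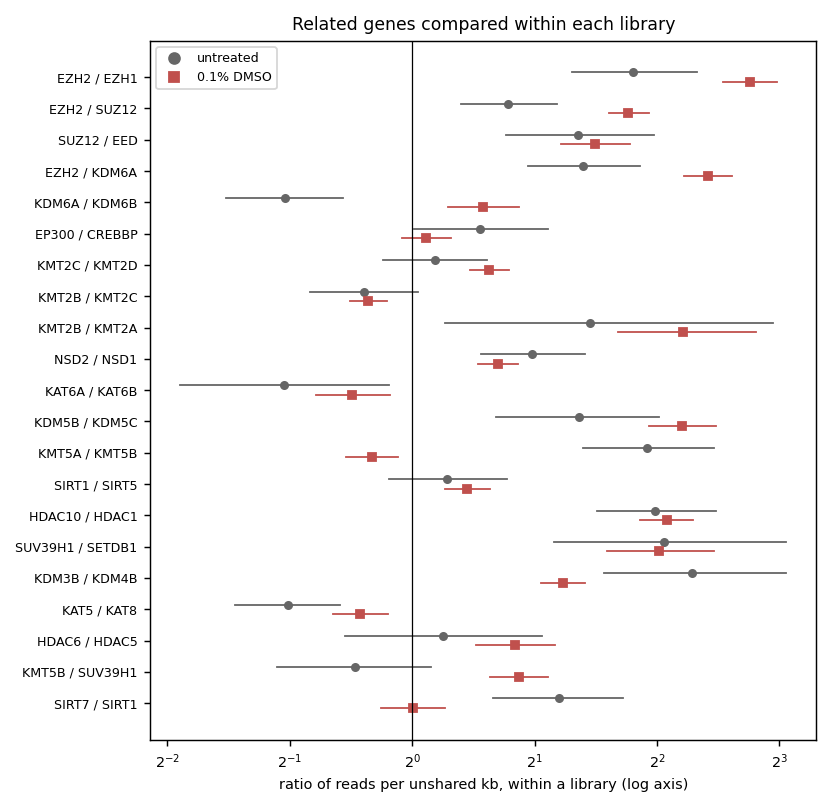
Ratio of reads per unshared kb between 2 related genes (log axis), each within the untreated (grey circles) and the DMSO library (red squares), with exact 95% intervals for counting error. KDM6A over KDM6B and KMT5A over KMT5B cross the line of equality between the libraries with both intervals clear of it, while EZH2 over EZH1 stays above it in both.

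Of the 7 H3K4 methyltransferases, 4 had a measurable window. The MLL-family genes KMT2C and KMT2D, which methylate enhancers, had 101 and 89 untreated reads and 808 and 522 DMSO reads. KMT2C over KMT2D was 1.13 times untreated (0.845 to 1.53), not distinguishable from equality, and 1.55 times with DMSO (1.38 to 1.73). KMT2B, which acts at promoters, had 77 and 630 reads. KMT2A, the MLL gene of acute leukaemias, had 6 and 29 reads over the 1283 bases left to it downstream of its start. The log2 ratios of KMT2B, KMT2C and KMT2D were 0.79, 0.76 and 0.31, and the interval of KMT2D alone held the median window (-0.01 to 0.66). SETD1A and SETD1B, the catalytic subunits of the SET1 complexes, had 4 and 2 untreated and 9 and 12 DMSO reads over 554 and 273 unshared bases.

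Of the H3K4 demethylases past the floor, 2 lay above the median window and 1 below it, where 50% of all windows lie above by construction. KDM1A, the flavin-dependent LSD1 that acts with RCOR1 in erythroid cells, had 53 and 293 reads, KDM5C 55 and 217, and KDM5B 32 and 227. Their log2 ratios were 0.23, -0.26 and 0.58. KDM5B over KDM5C per kb was 2.57 times (1.61 to 4.04) untreated and 4.62 times (3.82 to 5.59) with DMSO, although KDM5B was read over 1359 bases downstream of its start and KDM5C over a full window. The KDM5C window also overlaps IQSEC2. The group's median ratio of 0.23 was -0.28 when shared windows were left out, which leaves KDM5C. KDM1B had 2 untreated reads and none with DMSO in 251 unshared bases, and KDM5A 0 and 2 in 48.

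Of the H3K9 methyltransferases, SUV39H1, which builds pericentric heterochromatin, was the only member past the floor, with 54 and 227 reads (log2 ratio -0.17, -0.60 to 0.29). SETDB1, which silences retroelements with TRIM28, had 13 and 56 reads over a full window with its RefSeq start. SUV39H1 exceeded it by 4.15 times untreated (2.24 to 8.30) and 4.05 times with DMSO (3.01 to 5.53). The heterodimer partners EHMT1 and EHMT2 and the paralog SUV39H2 had 85 to 133 unshared bases. SUV39H2 had 0 untreated and 2 DMSO reads.

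Of the 11 H3K9 and H3K36 demethylases, 4 passed the floor, which 17.9% of all windows did. All 4 lay above the median window, where 50% of windows past the floor lie by construction. The floor admits windows that are high with DMSO more easily, so this count supports nothing by itself. KDM3B, a JmjC demethylase of H3K9 (chromosome 5, 138349685 to 138355684), had 57 and 546 reads over the 3043 bases from 43 upstream of its start onward, with a ratio of 1.02 (0.63 to 1.44). With the trend with read count subtracted it stood at 0.87, under the 2-fold line. KDM8 had 35 and 221 reads (0.42) and KDM2A 18 and 129 (0.60), and the intervals of both held the median window. KDM3B exceeded KDM4B per kb by 4.89 times untreated (2.96 to 8.31) and by 2.35 times with DMSO (2.07 to 2.66). The remaining KDM4 genes with measurable windows were at or near 0: KDM4C had 0 and 3 reads, KDM4E, known from testis, 1 and 2, and KDM4F 0 and 0. The KDM4C window lies where its RefSeq gene record begins. The only KDM4C start in the promoter table is 37110 bases downstream of the window centre, so the count is not a measurement of that promoter.

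Both H3K36 methyltransferases with unshared windows were among the better read starts. NSD2, a gene activated by translocation in multiple myeloma, had 142 untreated and 828 DMSO reads, and NSD1 72 and 509. NSD2 exceeded NSD1 by 1.97 times (1.48 to 2.66) and 1.63 times (1.45 to 1.82). The log2 ratios were 0.31 (0.05 to 0.57) and 0.58 (0.23 to 0.96). SETD2, which trimethylates H3K36 along gene bodies, had 3 and 4 reads over 218 unshared bases.

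Among the acetyltransferases 7 of 10 members passed the floor, which 17.9% of all windows did. Of these 7, 5 lay above the median window, where 50% of all windows past the floor lie by construction. Because of what the floor admits, this count too supports nothing by itself. The coactivator paralogs EP300 and CREBBP had 72 and 49 untreated and 443 and 409 DMSO reads. EP300 over CREBBP was 1.47 times untreated (1.01 to 2.16), while with DMSO the interval of 0.945 to 1.24 held equality. CREBBP stood at a log2 ratio of 0.82 (0.39 to 1.28) and EP300 at 0.38 (0.02 to 0.76). Of the MOZ-family paralogs, KAT6A had 26 and 231 reads (0.91, 0.33 to 1.56) and KAT6B 25 and 151 (0.35, -0.26 to 1.03). KAT5, the TIP60 acetyltransferase of H4 and H2A, had 86 and 374 reads (-0.12). KAT2B, the SAGA-type PCAF, had 40 and 265 reads (0.49). Its paralog KAT2A had 1 and 50 reads over 1436 bases downstream of the start; the interval of its ratio, 0.86 to 8.74 relative to the median window, rests on that single untreated read. KAT8 had 104 and 300 reads (-0.71, -1.04 to -0.37) in the window that misses its RefSeq start. KAT7 and KAT14 had 1 and 2 untreated reads in 500 and 255 unshared bases.

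The deacetylases were led by HDAC10, a polyamine deacetylase of class IIb (chromosome 22, 50248406 to 50254405), with 182 untreated and 929 DMSO reads and a log2 ratio of 0.11 (-0.12 to 0.35). Its unshared bases also overlap MAPK12. HDAC10 exceeded HDAC1, the class I enzyme of the NuRD, SIN3 and CoREST complexes, by 3.96 times (2.85 to 5.59) and 4.22 times (3.64 to 4.91). HDAC1 had 46 and 220 reads (0.02, -0.44 to 0.51) and was the only class I gene past the floor, since HDAC3 and HDAC8 had 100 and 258 unshared bases and the HDAC2 window lay away from its RefSeq start. HDAC6, the cytoplasmic tubulin deacetylase, had 31 and 224 reads (0.61, 0.07 to 1.21), and HDAC5, of class IIa, 26 and 125 (0.03). HDAC6 over HDAC5 was 1.19 times untreated (0.685 to 2.09), not distinguishable, and 1.79 times with DMSO (1.43 to 2.25). HDAC9 had 0 and 4 reads over a full window with its RefSeq start. HDAC11, the class IV gene, had 1 and 1 read in 330 unshared bases.

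Of the sirtuins, SIRT1, the nuclear deacetylase of histones and p53, had 83 and 584 reads (log2 ratio 0.58, 0.24 to 0.93), and SIRT5, the mitochondrial desuccinylase, 68 and 428 (0.41, 0.04 to 0.81). SIRT1 over SIRT5 was 1.22 times untreated (0.875 to 1.71) and 1.36 times with DMSO (1.20 to 1.55). SIRT7, a nucleolar H3K18 deacetylase, had 50 and 154 reads (-0.61, -1.08 to -0.12) over 1575 bases that overlap MAFG. SIRT4 had 5 and 10 reads over a full window with its RefSeq start. SIRT6 had 7 and 8 reads in 787 unshared bases, and SIRT2 1 and 0 in 163.

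**Figure D5:**
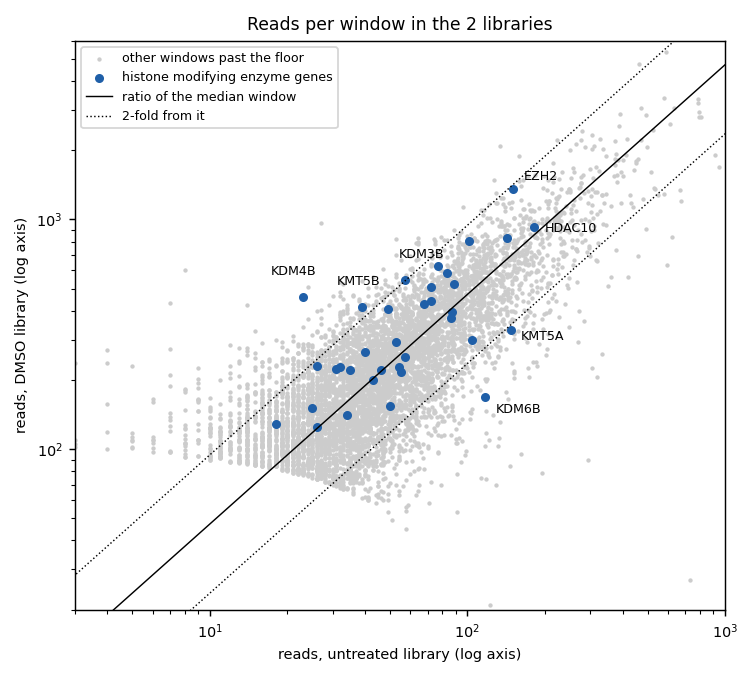
Reads per window in the untreated (x) and the DMSO library (y), both on log axes, for all windows past the floor with an untreated read (grey) and the 35 members (blue); the solid line is the ratio of the median window and the dotted lines lie 2-fold from it. Most members lie between the dotted lines, with KDM4B above and KDM6B below them.

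Genes that act with these enzymes were taken from a fixed list of 131 complex subunits, readers and further enzymes, of which 130 were found by name and 66 passed the floor, which 17.9% of all windows did. Of these 66, 50 lay above the median window, where 50% of all windows do by construction. There were 9 that stood 2-fold or more above it and 1 as far below it, against 7.04% and 7.97% of all windows past the floor. Their median log2 ratio was 0.33. NCOA6, a subunit of the KMT2C and KMT2D complexes, had 18 and 300 reads (1.81), BRD1, a scaffold of KAT6A, KAT6B and KAT7, 13 and 188 (1.60), and TRIM28, the corepressor that recruits SETDB1, 63 and 787 (1.40). RNF2, the ubiquitin ligase of PRC1, stood at 1.33. RIOX1 (1.21), MSL2 (1.14) and CBX2 (1.03) were also past 2-fold. By list, 11 of 14 PRC1 and PRC2 partners, 14 of 16 acetyltransferase subunits, 8 of 13 HDAC complex subunits, 3 of 6 COMPASS subunits, 6 of 9 other methyltransferases, 2 of 2 other JmjC proteins and 6 of 6 acetyl-lysine readers past the floor lay above the median window, against the same 50% of all windows. As for the members, the floor admits windows that are high with DMSO more easily, so these partner counts support nothing by themselves.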

How the data were processed

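The deposited table gave raw read counts per window for both libraries. Per the submitters' processing notes, Bowtie2 2.3.5 and featureCounts 2.0.1 were used on hg38; strand settings are not given in the sources used here. The TPM columns of the authors equalled CPM (to within 1e-06) in all 36814 windows and were not used further; nor was their mean TPM. Unshared bases, CPM, log2 ratios (prior count of 0.5 reads), and exact 95% intervals were computed from the counts with Python 3.11.15, edgeR 4.0.16 (TMM) and DESeq2 1.42.0 (size factors, an alternative) in R 4.3.3. The ratio and interval steps were checked on simulated Poisson counts, which hold no duplicate reads. Intervals cover counting error only. Reads carry no molecular identifiers, so duplicates of a molecule cannot be recognised and the intervals may be too narrow. Each group has 1 library, so no test was made. RefSeq starts came from tables of GRCh38.p14, which hold a promoter for 62 of the 70 not on the Y chromosome. Named were the highest and lowest member of each role by level, the 8 highest and 8 lowest by ratio past the floor, members at 0 or near the floor, paralogs, and partner genes past 2-fold. A few of these partner genes are not reported here. The members, lists and thresholds were chosen with earlier results of these data known.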

Additional observations from a re-analysis of the deposited data

How the results depend on the processing

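No paired analysis was possible because a single library stands for each condition, so none could be left out. Subtraction of the trend and the choice of unshared RefSeq starts were added after seeing the data. The counts of 3 higher and 2 lower members and the median of 0.35 kept within 1.5 times, or within the interval of the median, under library totals, DESeq2 size factors, upper quartile scaling and a prior count of 2 reads. Centring on the median window cancels the scaling factor, so the other scalings could move a ratio only slightly, through the prior count. Their agreement was fixed in advance and is no check of the ratios. Thinning the DMSO library left 1 member lower (KMT5A then stood at -0.95). A floor of 1 CPM and 20 reads gave 6 higher, and one of 20 CPM and 400 reads passed 18 members with 1 lower. The 1.5-fold threshold gave 10 higher and 4 lower. Without centring, the TMM scale gave 8 higher, 1 lower and a median of 0.66. Levels per window of fixed length gave a median of 1.86 CPM per kb over all 71 members in place of 7.95 over 45, since short unshared windows enter. Floors, the threshold and centring change these counts by their construction; the cause of the shift with thinning, from a single random draw, was not tested. Of 228 single ratios under other settings, 227 stayed within their counting intervals, and KDM6B after thinning (-1.28) did not. Those under other scalings are among the 228 and could hardly move, for the reason given above. The prior count of 2 reads and the restriction to windows that share no base kept the same counts, so those ratios could hardly move either. Only thinning drew new counts, and members that it put under the floor have no ratio there. Most of the 227 are therefore no check of the ratios. None of the ratios past 2-fold changed sign. Depth limits the untreated side most: members past the floor held 18 to 182 untreated reads.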
